A study of Mus musculus with 2 samples.

Results

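The genes described here are 10 mouse genes that are used to tell epithelial from mesenchymal cells, picked by name, with earlier results of these data known. They are the adhesion genes Cdh1 and Epcam, the keratin genes Krt8, Krt18 and Krt14, the vimentin gene Vim, the repressor genes Snai1, Snai2 and Zeb1, and the epithelial activator gene Grhl2. Of these 10, 9 were among the 14197 genes of the deposited table. Snai2 was not listed, and it has no value below. The AS library came from 4T1 cells, a murine mammary carcinoma line, cultured with 20 μM astragalin (AS), a plant flavonoid, for 24 h. The vehicle library came from 4T1 cells given the vehicle alone, and the labels give the genotype of both cultures as WT. With 1 RNA-seq library per condition, no test over samples was possible, no difference below has a replicate check, and a difference between the cultures other than AS cannot be told apart from AS. Over all genes there were 44820056 reads for AS and 50723557 for the vehicle.

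Epithelial cells are held together by E-cadherin junctions and are braced by keratin filaments, which form from pairs of an acidic and a basic keratin. In an epithelial-mesenchymal transition (EMT), repressors of the SNAI and ZEB families bind E-box sequences in epithelial genes and lower their transcription, and vimentin filaments become prominent. GRHL2 works in the other direction, as an activator of junction genes and an opponent of ZEB1. Carcinoma cells can carry both programmes together, which is called a hybrid state.

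Levels are given as RPKM, the reads per kilobase of exon set against the size of the library, as the authors made them. Whole reads behind each RPKM were recovered for all 14197 genes, and intervals of a level are 95% exact Poisson intervals of these reads. Fold changes compare AS with vehicle on the log2 scale once 0.1 RPKM has been added to each level, which understates the change of low genes. The interval of a fold change is the 95% Clopper-Pearson interval of the reads with nothing added. Gene positions are those of GENCODE M21 on the mouse build GRCm38. All intervals cover counting error only, since reads without molecular identifiers are not independent molecules.

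The keratin genes and Vim were lower in the AS library, Cdh1 and Grhl2 were slightly higher, Epcam differed little, and Snai1 and Zeb1 had too few reads to show a difference. A 2-fold difference in either direction (1 on the log2 scale) was reached by 0 of the 9 genes, against 0.972% of all genes in the table. The study paired each of its fold thresholds with a limit on FDR or p-value, which was not applied here. Past 1.5-fold, the other fold threshold of the study, there was 1 gene, Krt14, which was lower with AS. Of all genes, 5.57% passed this threshold in either direction and 2.01% passed it downward. Krt8 also passed it when fold changes were centred on the median of all genes or scaled to the upper quartile, which gave 2 lower genes, beside 2.84% and 2.94% of all genes. In all, 7 of the 9 genes were lower with AS, where 39.1% of all genes were lower. In the highest 10% of genes by mean RPKM, which held Cdh1, Epcam, Krt8, Krt18 and Vim, 61.1% were lower. The median log2 fold change of the 9 genes was -0.31, which is the value of Snai1, beside 0.07 for all genes. With 1 RPKM added in place of 0.1, the median was -0.20. Krt14 lay close to the 2-fold threshold, and when fold changes were centred on the median of all genes it reached -1.03.

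**Figure D1:**
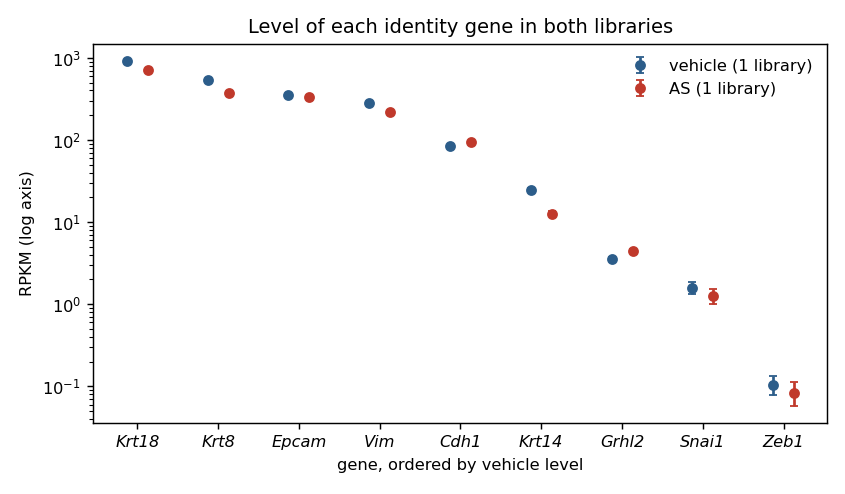
RPKM of each of the 9 listed identity genes on a log axis in the vehicle library (blue) and the AS library (red), with 95% exact Poisson intervals of the reads as bars. The genes keep the same order in both libraries, from Krt18 at 902 and 707 RPKM down to Zeb1 at 0.104 and 0.0824 RPKM.

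The order of the levels was the same in both libraries, from Krt18 through Krt8, Epcam, Vim, Cdh1, Krt14, Grhl2 and Snai1 to Zeb1. No neighbours in that order had overlapping counting intervals in either library, though with 1 library each this says nothing of the spread between cultures. The level of Krt18 was 8579 times that of Zeb1 with AS and 8715 times with the vehicle. Krt18, Krt8, Epcam, Vim and Cdh1 were all in the highest 10% of the table by RPKM, with Vim alone from the mesenchymal side. The repressor gene Zeb1 was in the lowest 10%.

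Krt14, which encodes the acidic keratin of basal epithelial cells, reached 12.7 RPKM under AS (11.9 to 13.5) and 24.7 RPKM under vehicle (23.7 to 25.8), from 999 and 2211 reads. The AS library was thus low, 1.96-fold below the vehicle library, and the counting intervals did not overlap. The log2 fold change was -0.96, with an interval from -1.08 to -0.86, the rank of 51 from the lowest in the table. Krt14 lies on chromosome 11 from 100203162 to 100207548 on the minus strand of GRCm38, in the acidic keratin cluster. It has close paralogs in Krt16 and Krt17, and how the counting treated shared reads is not given in the sources used here.

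Krt8 and Krt18 encode the basic and acidic partners of the simple epithelial keratin pair, and they are neighbours on chromosome 15. Krt8 spans 101996698 to 102004482 on the minus strand, Krt18 spans 102028180 to 102032027 on the plus strand, and 23697 bases separate them. The level of Krt8 was 372 RPKM under AS (368 to 376) and 539.5 RPKM under vehicle (535 to 544), from 32686 and 53687 reads. That of Krt18 was 707 RPKM under AS (701 to 714) and 902 RPKM under vehicle (895 to 909), from 45630 and 65875 reads. Both partners were lower with AS and their intervals did not overlap. The log2 fold change was -0.54 for Krt8 (-0.56 to -0.52) and -0.35 for Krt18 (-0.37 to -0.33). The pair did not move by the same amount, since the RPKM ratio of Krt18 to Krt8 was 1.90 under AS and 1.67 under vehicle. Krt8 shares 5.16% of its exon bases with Gm36026 on the other strand. Its processed pseudogene Krt8-ps, chosen after its values were seen, held 100 reads with AS and 166 with the vehicle, or 0.306% and 0.309% of the Krt8 reads.

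**Figure D2:**
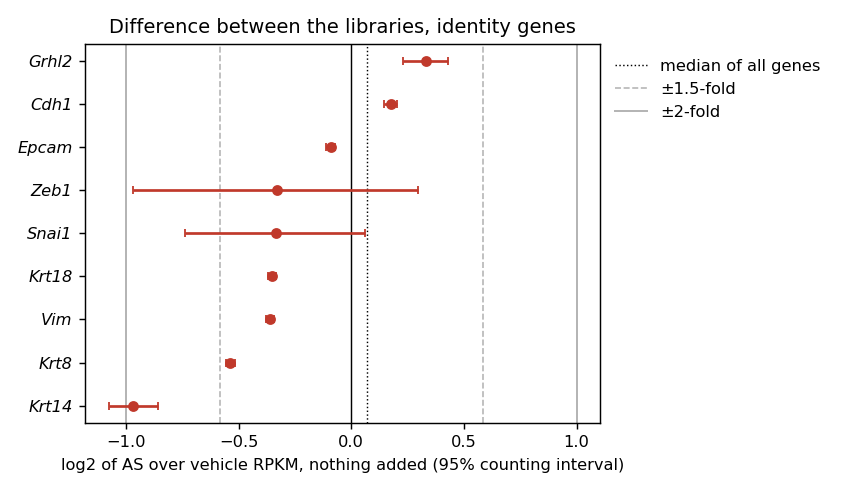
Log2 of the AS over the vehicle RPKM with nothing added, for the 9 listed identity genes, with 95% Clopper-Pearson intervals of the reads as bars, thresholds at 1.5-fold and 2-fold as grey lines, and the median of all genes as a dotted line. Krt14 lies lowest at -0.97, the intervals of Snai1 and Zeb1 cross 0, and Grhl2 lies highest at 0.33.

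Of the 12 keratin genes in the table, 11 were lower with AS and 1, Krt78, was higher. Krt78, chosen after its values were seen, reached 0.512 RPKM under AS (79 reads) and 0.281 RPKM under vehicle (49 reads). Its log2 fold change of 0.69 was past 1.5-fold, where 3.56% of all genes were higher by as much. This value rests on few reads and has neither an interval nor an alternative with 1 RPKM added. Krt78 was outside a list of 18 keratin genes, of which the other 11 were members. With the scaling of the authors, 39.1% of all genes were lower. These 11 were also lower under each other scaling tried. Centring on all genes and upper-quartile scaling lower every gene, so only centring on the same level and length could have changed this. Of the 14188 genes outside the identity genes, 7091 were lower when centred on all genes and 7369 with upper-quartile scaling. The number was 7084 when centred on genes of the same level and length, as described below. The median of the log2 fold changes of the list, without Krt78, was -0.48. Of the 11, 2 passed 1.5-fold, namely Krt14 and Krt19, against 2.01% of all genes. The count was 4 when centred on all genes (2.84% of all genes) and 5 with upper-quartile scaling (2.94%). Krt19, a small acidic keratin of simple epithelia, reached 136 RPKM under AS and 226 RPKM under vehicle, which is a log2 fold change of -0.73. Krt7, the basic keratin of ductal epithelia and chosen after its values were seen, reached 119 and 170 RPKM, which is a log2 fold change of -0.52. The smallest difference in the list was -0.05, for Krt80, also chosen after its values were seen, with an interval from -0.20 to 0.08. Besides Krt80, the counting intervals of Krt10, Krt13 and Krt16 also held 0, and these genes too were chosen after their values were seen. Summed over the 11 genes, keratin RPKM was 1366 under AS and 1885 under vehicle, a ratio of 0.725. The simple keratins held 97.8% of the sum with AS and 97.6% with the vehicle, while Krt8 and Krt18 together held 79.0% and 76.5%. Krt5, the usual basic partner of Krt14, was not listed, nor were Krt1, Krt4, Krt6a, Krt6b, Krt20 and Krt23.

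**Figure D3:**
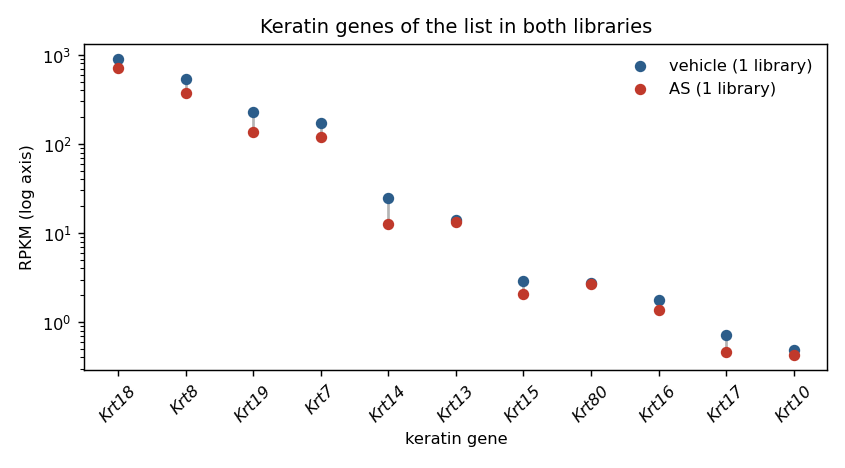
RPKM on a log axis of the 11 keratin genes of the list that are in the table, in the vehicle library (blue) and the AS library (red), joined by a grey line. The AS point is below the vehicle point for all 11, with Krt78 not plotted, and with the widest gap on the log axis at Krt14 (12.7 against 24.7 RPKM).

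Krt8 and Krt18 are abundant, Krt14 is less so, and all 3 have short transcripts. Fold changes over the whole table moved with both level and exon length. The median log2 fold change was -0.04 in the shortest 10% of genes by exon length and 0.15 in the longest 10%. It was -0.05 in the highest 10% by RPKM and 0.10 in the lowest 10%. For the 210 genes whose mean reached 100 RPKM and whose exons summed to between 1000 and 3000 bases, 77.1% were lower with AS, with a median of -0.09, and 2.86% were more than 1.5-fold lower. Krt8 and Krt18 were among them, and Krt14 was not. The class of 10% by RPKM that held Krt14 had a median of 0.02. The part of these trends in the keratin values was not tested beyond 1 alternative. When genes were split into classes of 20% by RPKM and of 20% by exon length, and each was centred on the median of its joint class, a comparison chosen after seeing the data, Krt14 was at -0.88, Krt8 at -0.50 and Krt18 at -0.27. All 11 keratins of the list were still below 0, with a median of -0.50. All 3 of these genes thus came closer to 0 in this step, while the median of the list did not.

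**Figure D4:**
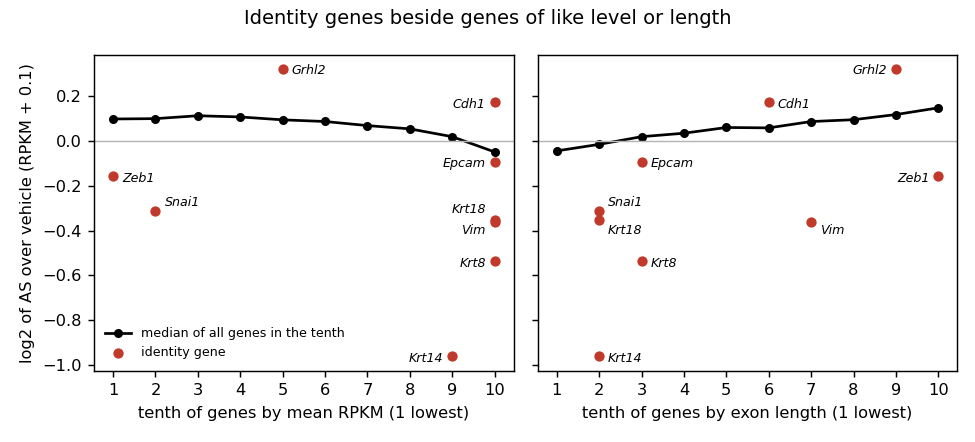
Log2 fold change of AS over vehicle after 0.1 RPKM was added (vertical axis) for the 9 listed identity genes (red) against classes of 10% of the genes by mean RPKM (left) and by exon length (right), with the median of all genes in each class in black. The medians run from 0.10 in the lowest to -0.05 in the highest class by RPKM and from -0.04 to 0.15 by length, while Krt14 lies at -0.96 and Krt8 at -0.54.

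The sequences before the start sites of Krt18, Krt8, Krt14 and Epcam are shown to set the keratin genes beside an epithelial gene with a smaller difference. They are RefSeq sequences of GRCm38.p6, read 5′ to 3′ on the strand of the gene, from up to 250 bases before the RefSeq start and without bases that GENCODE M21 places in an exon. Capitals mark the E-box CAGGTG or its complement CACCTG, the letters that SNAI and ZEB repressors are known to bind. Krt18 is shown from chr15:102027966-102028179 (plus strand), Krt8 from chr15:102004483-102004592 (minus strand), Krt14 from chr11:100206031-100206280 (minus strand) and Epcam from chr17:87635729-87635978 (plus strand).
Krt18: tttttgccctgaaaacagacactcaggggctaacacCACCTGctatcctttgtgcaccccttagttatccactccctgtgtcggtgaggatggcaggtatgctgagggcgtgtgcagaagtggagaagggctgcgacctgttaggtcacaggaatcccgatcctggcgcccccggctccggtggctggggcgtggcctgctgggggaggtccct
Krt8: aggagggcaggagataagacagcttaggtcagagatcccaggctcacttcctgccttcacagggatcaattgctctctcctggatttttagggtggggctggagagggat
Krt14: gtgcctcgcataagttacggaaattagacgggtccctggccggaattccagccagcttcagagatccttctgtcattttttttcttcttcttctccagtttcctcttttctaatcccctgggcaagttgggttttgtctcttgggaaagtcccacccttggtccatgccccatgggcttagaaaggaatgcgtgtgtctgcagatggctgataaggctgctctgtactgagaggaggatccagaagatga
Epcam: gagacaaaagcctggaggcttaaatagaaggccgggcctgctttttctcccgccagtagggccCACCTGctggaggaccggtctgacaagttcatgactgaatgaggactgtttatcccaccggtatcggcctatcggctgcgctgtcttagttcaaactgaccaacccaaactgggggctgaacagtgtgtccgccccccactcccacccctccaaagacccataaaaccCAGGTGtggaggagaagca

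Over the full 250 bases, searched on both strands, the E-box was found once before Krt18, starting 214 bases from the start site, and once before Krt8, at 111 bases, in a stretch not shown. Before Epcam it was found at 187 and 19 bases, and before Krt14 it was not found. Among 32851 RefSeq windows of this kind, 17.2% held it. It was also found before Snai1, at 126 bases, and not before Vim. The motif AACNNGTT, the core that GRHL factors are known to bind, was in none of these 6 windows and in 3.64% of all windows. The RefSeq starts of Krt8, Krt18, Krt14 and Vim lie inside the longer GENCODE genes, so the windows of Krt14 and Vim and the E-box of Krt8 are within the GENCODE gene, and other starts are not covered. No other window of the 10 genes was read.

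Cdh1 encodes E-cadherin, the main adhesion molecule of epithelial junctions, and lies on chromosome 8 from 106603351 to 106670246. The level was 95.5 RPKM under AS (94.2 to 96.8) and 84.6 RPKM under vehicle (83.4 to 85.8), from 19618 and 19672 reads. The AS library was the higher, by 1.13-fold, which is a log2 fold change of 0.17 (0.15 to 0.20), and 67.4% of all genes had a lower one. The read numbers themselves were nearly equal, and the value for Cdh1 was 0.11 when centred on the median of all genes and 0.09 with upper-quartile scaling. Epcam, a surface adhesion protein of epithelial and carcinoma cells on chromosome 17 from 87635979 to 87651129, reached 335 RPKM under AS (331 to 338) and 357 RPKM under vehicle (353 to 360), from 32993 and 39774 reads. Its log2 fold change was -0.09, and its counting interval (-0.11 to -0.07) was wholly negative. It was -0.16 when centred on all genes, -0.17 with upper-quartile scaling and -0.06 when centred on genes of its level and length. Cdh1 was thus higher and Epcam lower under each of these scalings, though centring on all genes and upper-quartile scaling lower every gene. Whether Cdh1 and Epcam differ from the keratins was not tested.

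The wider list of 45 junction and adhesion genes held members on both sides of 0. In the table there were 43 of them, 24 higher and 19 lower with AS, beside 39.1% of all genes lower. When centred on all genes, 20 were higher and 23 lower, and with upper-quartile scaling 19 were higher and 24 lower. Of the 14188 genes outside the identity genes, 7091 and 7369 were lower under these scalings, in that order. The log2 fold changes of the 43 went from -0.42 for Pkp2, a desmosomal plakophilin gene chosen after its values were seen, to 0.85 for Crb3. Their median of 0.03 turned to -0.04 when fold changes were centred on the median of all genes. Of the 43, 2 were more than 1.5-fold higher, against 3.56% of all genes, and 0 were lower by as much. The count of higher genes was 1 when centred on all genes (2.70% of all genes) and 1 with upper-quartile scaling (2.64%). It was 0 with 1 RPKM added (1.33%) and 3 with 0 RPKM added (4.64%). With 0.1 RPKM added, the 2 genes were Crb3, an apical polarity gene, and Ap1m2, a subunit of the epithelial sorting adaptor AP-1B. Crb3 reached 1.55 RPKM under AS and 0.818 RPKM under vehicle, from only 109 and 65 reads. Ap1m2 reached 0.383 and 0.219 RPKM, from 54 and 35 reads. Both are low genes with wide intervals, from 0.47 to 1.39 for Crb3 and from 0.16 to 1.46 for Ap1m2. Ppl, the gene of periplakin and the most abundant of the list after Epcam, reached 132 RPKM under AS and 149 RPKM under vehicle. Cldn1 and Cdh3 were not listed.

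Vim encodes vimentin, the intermediate filament protein of mesenchymal cells, and lies on chromosome 2 from 13573927 to 13582826. The level was 221 RPKM under AS (219 to 223) and 284 RPKM under vehicle (282 to 286), from 47139 and 68439 reads. The AS library was 1.28-fold lower, which is a log2 fold change of -0.36 (-0.38 to -0.34). This was close to the -0.35 of Krt18, so the RPKM ratio of Krt18 to Vim was 3.19 under AS and 3.18 under vehicle. The ratio of Cdh1 to Vim differed more, at 0.432 under AS and 0.298 under vehicle. Genes of its class by level and length had a median of 0.03, and centred on it Vim was at -0.39. Since these are bulk libraries, fewer cells with a transcript and less of it per cell cannot be told apart.

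The other mesenchymal genes lay on both sides of 0. Of 32 mesenchymal genes, Vim included, 23 were in the table, 14 of them were higher and 9 lower with AS, a share of lower genes like the 39.1% of all genes. The median was 0.14, and 0.07 when centred on all genes. Past 1.5-fold there was 1 gene, where 5.57% of all genes passed. This was S100a4, a calcium-binding protein gene linked to motility, with 118 RPKM under AS and 218 RPKM under vehicle, which is a log2 fold change of -0.89. S100a4 shares 51.7% of its exon bases with Gm42674 on the same strand, so its reads are uncertain. Msn, the gene of moesin and the most abundant of the list by the mean of both libraries, reached 259 RPKM under AS and 284 RPKM under vehicle, which is a log2 fold change of -0.13. Cdh2, the N-cadherin gene, was not listed, nor were Cdh11, Cnn1, Thy1, Pdgfrb, Ncam1, Fap, Dcn and Lum.

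**Figure D5:**
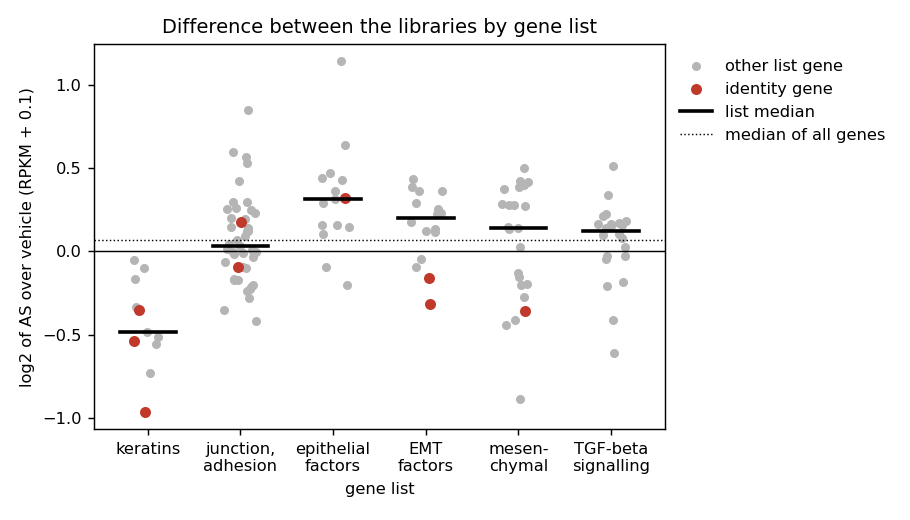
Log2 fold change of AS over vehicle after 0.1 RPKM was added (vertical axis) for the genes of 6 lists, with identity genes in red, other genes in grey, the list median as a bar and the median of all genes (0.07) as a dotted line. The keratin list, which does not hold Krt78, lies wholly below 0 with a median of -0.48, and the epithelial transcription and splicing factors have the highest median at 0.32.

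Snai1 encodes SNAIL, a zinc-finger repressor of Cdh1, and lies on chromosome 2 from 167538195 to 167542814. The level was 1.25 RPKM under AS (1.01 to 1.53) and 1.58 RPKM under vehicle (1.32 to 1.87), from 91 and 130 reads. Zeb1, a zinc-finger repressor that GRHL2 opposes, lies on chromosome 18 from 5591860 to 5775467. The level was 0.0824 RPKM under AS (0.0583 to 0.113) and 0.104 RPKM under vehicle (0.0778 to 0.135), from 38 and 54 reads. For both repressors the AS library was lower but the intervals of the levels overlapped. The log2 fold change was -0.31 for Snai1, with an interval from -0.74 to 0.06. For Zeb1 it was -0.16, and -0.33 from the reads alone, with an interval from -0.97 to 0.30. With 1 RPKM added, Snai1 was at -0.20 and Zeb1 at -0.03. A difference was thus not detectable at this depth for either gene. Only 0.134% of all genes had a lower RPKM than Zeb1 with AS and 0.359% with the vehicle, and the exon length of 10266 bases means that even 38 reads give a very low level.

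Some other EMT transcription factors were more abundant than Snai1 and Zeb1. Of a list of 21 such genes, 16 were in the table, 12 higher and 4 lower with AS, beside 39.1% of all genes lower. Snai1 and Zeb1 were among the 4, so that 2 of the other 14 were lower, Tcf3 and Sox9, the latter chosen after its values were seen. The median was 0.20, and 0.14 when centred on all genes. A 1.5-fold difference was reached by 0 of the 16, against 5.57% of all genes. The most abundant were Tcf3, an E-box binding factor, with 30.2 RPKM under AS and 31.1 under vehicle, and Sox4, with 28.8 and 23.5 RPKM. Sox4 shares 54.6% of its exon bases with Gm26735 on the other strand, and whether the counting used the strand is not given in the sources used here. Zeb2, the paralog of Zeb1 and chosen after its values were seen, reached 2.94 RPKM under AS and 2.26 RPKM under vehicle, above Zeb1 in both libraries. Centred on genes of the same level and length, the median of the list was 0.10, with 11 genes above and 5 below 0. Of the 14188 genes outside the identity genes, 7089 were then above and 7084 below 0. Snai2, Snai3, Twist2, Prrx1 and Gsc were not listed.

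Grhl2 lies on chromosome 15 from 37233036 to 37363569 and encodes the grainyhead-like activator of epithelial junction genes. The level was 4.45 RPKM under AS (4.24 to 4.67) and 3.54 RPKM under vehicle (3.36 to 3.72), from 1722 and 1549 reads. The AS library was 1.26-fold higher, without overlap of the intervals, and the log2 fold change was 0.32 (0.23 to 0.43). Grhl2 was the highest of the 9 genes by this measure, and 85.2% of all genes had a lower value. Its exons sum to 8613 bases, and genes of its class by level and length had a median of 0.15, so that Grhl2 was 0.17 above them. The RPKM ratio of Grhl2 to Zeb1 was 54.0 under AS and 34.2 under vehicle, but this rests on the few Zeb1 reads.

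Most epithelial transcription and splicing factors had higher values with AS. Of 20 such genes, Grhl2 included, 15 were in the table, and 13 were higher and 2 lower, beside 39.1% of all genes lower. The split was the same after each other scaling. Of the 14188 genes outside the identity genes, 7091 were lower when centred on all genes and 7369 with upper-quartile scaling. The number was 7084 when centred on genes of the same level and length. The median log2 fold change of the list was 0.32, 0.25 when centred on all genes and 0.17 when centred on genes of the same level and length. Past 1.5-fold there were 2 higher genes, Klf4 and Trp63, and 0 lower, against 3.56% higher in the table. With 1 RPKM added, or when centred on all genes or on genes of the same level and length, Trp63 no longer passed. Klf4, a zinc-finger factor of epithelial differentiation, reached 1.85 RPKM under AS and 0.787 RPKM under vehicle, from 254 and 122 reads. Its log2 fold change of 1.14 was the only one beyond 1 among the 6 lists with 0.1 RPKM added, beside 0.972% of all genes. With 1 RPKM added, Klf4 was at 0.68 and no longer beyond 1. Trp63, the master factor of basal epithelial cells, reached 0.154 and 0.0633 RPKM, from only 58 and 27 reads. Its log2 fold change of 0.64, or 1.28 from the reads alone, was opposite in sign to that of the basal keratin Krt14. The most abundant factors were Elf3, with 26.6 RPKM under AS and 24.8 under vehicle, and Ehf, with 27.7 and 20.4 RPKM, both ETS factors of epithelia. Grhl1, Grhl3, Elf5, Tfap2c and Zfp750 were not listed.

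TGF-beta is the best known inducer of EMT and acts through SMAD proteins. All 22 genes of a list for this pathway were in the table, 15 higher and 7 lower with AS, a share of lower genes near the 39.1% of all genes. The median was 0.12, 0.06 when centred on all genes and 0.04 with upper-quartile scaling. Only Id3 passed 1.5-fold, where 5.57% of all genes did (and it did not with 1 RPKM added), with 4.45 RPKM under AS and 6.86 RPKM under vehicle, which is a log2 fold change of -0.61. Id3 encodes an inhibitor of helix-loop-helix factors that BMP and TGF-beta signals control. The most abundant genes were Inhba, an activin subunit, with 26.9 RPKM under AS and 35.8 under vehicle, and Skil, a SMAD corepressor, with 18.6 and 17.5 RPKM.

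Markers of mammary epithelium and of other cells were read beside the labelled cell type. All 6 luminal markers were listed, with a summed RPKM of 1672 under AS and 2133 under vehicle, of which Krt18 was the most abundant. Of 6 basal markers 5 were listed, with sums of 14.5 and 26.5 RPKM, most of it Krt14. Krt14 and Krt17 were lower, while Trp63, Mylk and Acta2 were higher with AS, and the median of the 5 was 0.27. Krt17, Mylk and Acta2 were chosen after their values were seen. Of 9 fibroblast markers 4 were listed (not Dcn, Lum, Pdgfrb, Thy1 and Fap), with sums of 6.16 RPKM under AS and 6.13 under vehicle, and the most abundant was Pdgfra at 4.24 and 4.16 RPKM. Among the others, Postn had a log2 fold change of -0.41 and Col1a1 one of 0.30, both chosen after their values were seen. Of 10 leukocyte markers 5 were listed, with sums of 5.91 and 5.35 RPKM, the most abundant being Cd14 at 2.62 and 2.61 RPKM, and Adgre1, Tyrobp, Fcer1g, Cd3e and Cd79a were not. Lyz2 had a log2 fold change of 0.40 and Itgam one of -0.28, both chosen after their values were seen. Of the 5 leukocyte markers, 4 were higher with AS, beside 39.1% of all genes lower. When centred on all genes, 1 of the 5 was higher, beside 7096 of the 14188 genes outside the identity genes. None of the 5 endothelial markers (Pecam1, Cdh5, Kdr, Tek and Vwf) was listed. The summed luminal markers were far above the other sums in both libraries, but sums over different genes do not measure shares of cell types. Krt18, Krt8, Epcam and Cdh1 among the luminal markers, and Krt14 among the basal ones, are themselves identity genes. The sums are therefore not a separate check of the cell type. The part of other cells in the values above was not tested. No gene of the table had a mean under 29.5 reads, so a gene that is not listed may lie under a filter that the sources used here do not give.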

How the data were processed

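One RNA-seq library per condition was made from 4T1 cells with a stranded mRNA kit. The submitters' processing notes name fastp 0.23.4, STAR 2.5.3a, featureCounts and GRCh38, a human build, while the table lists mouse symbols. The authors deposited RPKM per library, a log2 of the mean CPM, and their own comparison as log2 fold change, p-value and FDR. The comparison was not used, and the log2 mean CPM served only to fix read numbers. The RPKM unit was found from the values. Library sizes of 44909683 and 50820728 reads made RPKM times exon length whole. The exon length was that of GENCODE M21 (GRCm38) for 94.2% of 13502 genes with 1 entry of the symbol. This gave whole reads for every gene, checked on simulated reads. Coordinates come from GENCODE M21. The build of the authors was not settled.

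Fold changes kept the scaling of the authors to library size. No gene was removed and no test was run. The alternatives were 0 or 1 RPKM added, centring on the median of all genes, upper-quartile scaling, a mean of at least 50 reads, a threshold of 1.5-fold and, chosen after seeing the data, centring on the median of genes of the same class by level and length, and the 1.5-fold threshold under each of these scalings and additions. The genes and lists were chosen with earlier results of these data known. Besides the 10 genes, the text names for each of 6 lists the 2 most abundant genes and up to 4 higher and 4 lower genes past 1.5-fold whose reads averaged 30 or more, and for each of 5 marker lists the most abundant gene and those not listed. Other genes in the text were picked with their values in view, and are marked so there. Python 3.11.15 was used.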

Additional observations from a re-analysis of the deposited data

How the results depend on the processing

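Each of the 9 listed identity genes kept its sign under every other addition and scaling, but much of this was fixed in advance. These were 0 or 1 RPKM added, centring on the median of all genes, upper-quartile scaling and centring on the same level and length. An equal addition to both libraries cannot change a sign. Centring on all genes and upper-quartile scaling lower every gene, so only Cdh1 and Grhl2 could have changed sign there. The counting intervals of Snai1 and Zeb1 held 0. Krt14 ranged from -1.04 to -0.88, Krt8 from -0.62 to -0.50 and Cdh1 from 0.09 to 0.17. The number of identity genes beyond the threshold went from 0 to 1 with centring on all genes, with upper-quartile scaling and with a threshold of 1.5-fold, each time Krt14. The number of all genes beyond 1 was 138, 227 with 0 RPKM added, 54 with 1 RPKM added and 791 at 1.5-fold. Centring on all genes and upper-quartile scaling gave 1 keratin in place of 0, and turned the median of the junction and adhesion list from 0.03 to -0.036 and -0.044. Among epithelial transcription and splicing factors 1 gene was beyond 1, 2 with 0 RPKM added and 0 with 1 RPKM added. At 1.5-fold there were 2 junction and adhesion genes, 2 keratins, 2 epithelial factors, 1 mesenchymal gene and 1 TGF-beta gene. A minimum mean of 50 reads removed Zeb1, which then had no value. No paired analysis was possible because each condition has 1 library. Replicate error cannot be measured here, and depth limits Snai1 and Zeb1 most.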
